A study of Mus musculus with 4 samples.

Results

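The Hoxb cluster is the run of 10 Hoxb genes on mouse chromosome 11, and it was examined here for open chromatin in hematopoietic stem cells (HSCs) of WT and Med23-deficient (KO) mice. Its members were Hoxb13, Hoxb9, Hoxb8, Hoxb7, Hoxb6, Hoxb5, Hoxb4, Hoxb3, Hoxb2 and Hoxb1, named in the order in which they lie on the chromosome. Every ATAC-seq peak that overlapped the stretch from the first base of Hoxb13 to the last base of Hoxb1, with 50 kb added on each side, was taken. This window was chr11:96144316-96418256 in mm10 and spanned 273.9 kb, of which the genes and the DNA between them took 173.9 kb. It held 7 of the 37887 peaks of the WT list and 4 of the 37615 peaks of the KO list on the autosomes and chromosome X.

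ATAC-seq uses a transposase that cuts and tags accessible DNA, so that a peak marks a stretch with more tagged fragments than its surroundings. The study asked how loss of Med23, a subunit of the Mediator complex that links transcription factors to RNA polymerase, affects HSCs. The cells were sorted from the bone marrow of adult C57BL/6 mice as lineage-negative, Sca1 and Kit positive cells that were CD150+CD34-CD48- by the labels and CD150+CD48- by the study's methods. The labels name 4 samples, 2 per genotype. WT mice were Med23floxp/flowp with no cre, and KO mice were Mx1-cre;Med23floxp/flowp, so that both genotypes carried the floxed allele. Mx1-cre is driven by an interferon-inducible promoter, is induced with poly(I:C) and is active in the whole hematopoietic system and in other interferon-responsive tissues, so the loss was not restricted to HSCs. The deletion itself was not checked here. Each genotype had 1 peak list, named by both of its samples, and whether reads of both samples were pooled for it is not stated. No value could therefore be set against a spread between replicates, and no p-value is given.

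Hox genes encode homeodomain transcription factors that give cells their position along the body axis. Within a cluster they lie in the same orientation and are switched on in sequence, from the 3′ end, which is Hoxb1 here, towards the 5′ end, where Hoxb13 stands apart. In blood, Hoxb4 is best known because raising its level expands HSCs, and Hoxb5 has been used to mark long-term HSCs in mice.

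DNA at some of the peaks that the results turn on is given first, from GRCm38.p6, the assembly behind mm10, 5′ to 3′ on the plus strand, along which all 10 genes are transcribed. Capitals mark a match to the letters TGACAG, bound by MEIS proteins. Regions with a peak in both lists came first. Between Hoxb5 and Hoxb4 the stretch is the one around the KO summit, chr11:96311836-96312035, which runs past the end of the peak. The Hoxb4 stretch, chr11:96318666-96318695, is the part of the 5′ untranslated region with the MEIS match.
Hoxb5-Hoxb4 intergenic, KO summit: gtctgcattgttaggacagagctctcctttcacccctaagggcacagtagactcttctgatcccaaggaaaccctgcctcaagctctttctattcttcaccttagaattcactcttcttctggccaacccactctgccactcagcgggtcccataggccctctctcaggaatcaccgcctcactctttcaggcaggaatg
Hoxb4 first exon: actttgttcactTGACAGtaagtaggaggg

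Peaks of 1 list only came next. Summit stretches of 200 bases are shown at Hoxb9, chr11:96271727-96271926, in Hoxb6, chr11:96294566-96294765, and in Hoxb3, chr11:96340063-96340262, all of the WT list. The Hoxb3 stretch begins before its peak does. The last 231 coding bases of Hoxb8 under the KO peak, chr11:96284237-96284467, hold the end of its homeodomain, and its summit lay 165 bp beyond the last coding base.
Hoxb9 first coding exon, WT summit: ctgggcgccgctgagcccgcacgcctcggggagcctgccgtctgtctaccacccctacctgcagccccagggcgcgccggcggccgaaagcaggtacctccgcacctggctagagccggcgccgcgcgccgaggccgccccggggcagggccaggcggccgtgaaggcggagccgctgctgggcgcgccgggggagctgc
Hoxb6 intron, WT summit: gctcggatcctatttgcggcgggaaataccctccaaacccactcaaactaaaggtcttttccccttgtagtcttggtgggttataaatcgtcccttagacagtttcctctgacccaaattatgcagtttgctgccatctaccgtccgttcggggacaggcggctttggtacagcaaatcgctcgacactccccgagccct
Hoxb3 intron, WT summit: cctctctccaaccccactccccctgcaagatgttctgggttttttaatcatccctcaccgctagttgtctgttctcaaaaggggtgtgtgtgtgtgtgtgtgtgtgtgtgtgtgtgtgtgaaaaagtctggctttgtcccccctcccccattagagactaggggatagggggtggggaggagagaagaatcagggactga
Hoxb8 last coding bases under the KO peak: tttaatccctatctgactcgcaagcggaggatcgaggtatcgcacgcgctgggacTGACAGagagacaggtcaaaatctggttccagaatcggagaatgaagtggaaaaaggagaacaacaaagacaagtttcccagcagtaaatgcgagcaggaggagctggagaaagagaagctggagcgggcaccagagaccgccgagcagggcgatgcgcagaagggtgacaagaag

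These stretches differed in composition. The Hoxb9 stretch was 79.5% G and C and held 27 CpG dinucleotides. The Hoxb3 stretch held 1 CpG and an unbroken run of 18 GT units. The KO summit stretch between Hoxb5 and Hoxb4 held 2 CpG. Reads are harder to place at such simple repeats, and whether the repeat bears on the Hoxb3 peak was not tested.

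The largest part of the window held no peak in either list. All 11 peaks lay between the start of Hoxb9 and the end of Hoxb2, and both 50.0 kb flanks, the 77.1 kb from Hoxb13 to Hoxb9 and the 14.2 kb from the end of Hoxb2 to the end of Hoxb1 had none. Peaks of both lists were found at 3 places, between Hoxb5 and Hoxb4, in the first exon of Hoxb4 and in Hoxb2. The WT list alone had peaks in Hoxb9, Hoxb6 and Hoxb3, and the KO list alone had a peak in Hoxb8.

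**Figure D1:**
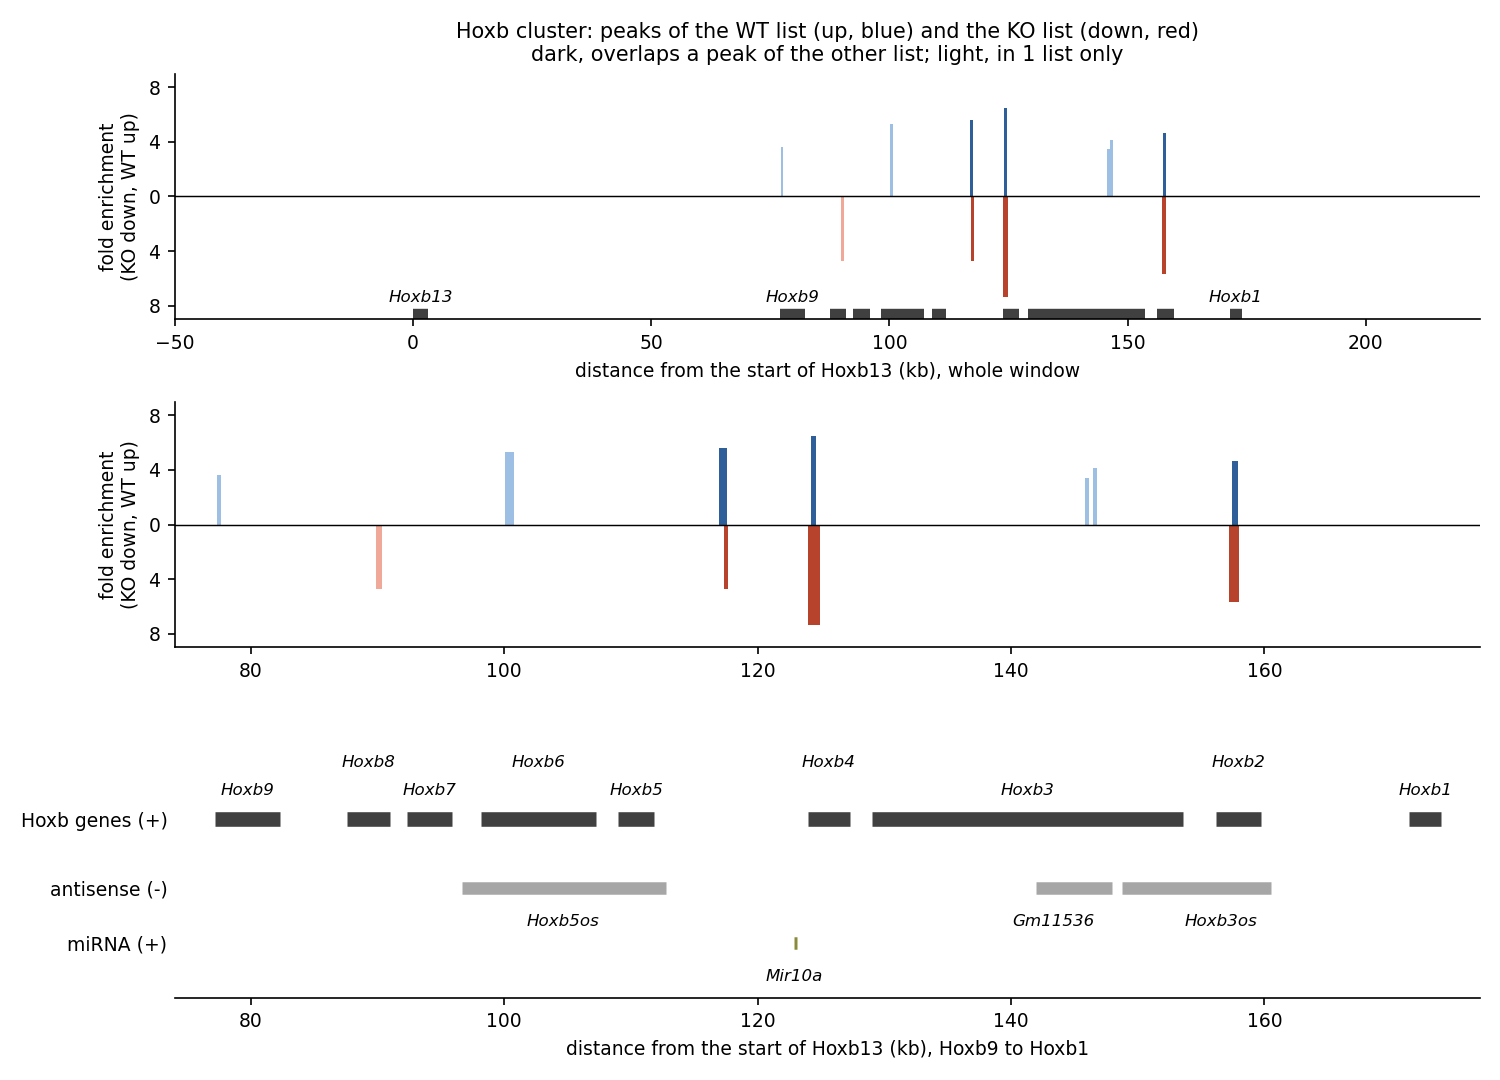
Peaks along the Hoxb cluster. The x axis is the distance from the start of Hoxb13 in kb, over the whole window at the top and from Hoxb9 to Hoxb1 below, and bar height is fold enrichment, upwards for the 7 WT peaks and downwards for the 4 KO peaks; bars narrower than 0.6 kb at the top or 0.3 kb below were widened to that. The 3 dark pairs are the places with a peak in both lists, and the gene track shows Hoxb13 and Hoxb1 with no peak.

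The 5′ genes, Hoxb13 to Hoxb5, had no stretch in common between the lists. Hoxb13, which acts in the prostate and the tail, had no WT peak within 77.3 kb of its start and no KO peak within 89.9 kb. Hoxb9, one of the genes that pattern the ribs, had a WT peak of 270 bp in its first coding exon at chr11:96271664-96271933. Its fold enrichment, the caller's ratio of the number of reads or fragments stacked at the summit (the pileup) to the local background, with 1 added to each, was 3.65. The pileup, recovered from the fold enrichment and the p-value of the caller, was 7 over a local background of 1.19. The −log10 q was 2.3, where q is the caller's p-value adjusted for the number of positions tested. Of all WT peaks, 1.4% had a lower pileup, so the Hoxb9 peak was among the weakest that the list held.

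Hoxb8, whose forced expression keeps myeloid progenitors dividing in culture, was the only member with a KO peak and no WT peak inside the gene. The peak, chr11:96284237-96284701, was 465 bp wide and covered the end of the coding sequence and the first part of the 3′ untranslated region. Its fold enrichment was 4.71, its pileup 9 over a local background of 1.13 and its −log10 q 4.2. The nearest WT peak was 9666 bp away, in Hoxb6. Hoxb7, a gene used to mark the ureteric bud of the kidney, had no peak inside it, and the Hoxb8 peak, 1922 bp from its start, was its nearest in the KO list.

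Hoxb6, expressed in the posterior mesoderm and in early blood progenitors, had a WT peak of 759 bp at chr11:96294368-96295126. It lay 1892 bp past the annotated start, in an intron of Hoxb6 and also of Hoxb5os, a non-coding RNA on the opposite strand. Its fold enrichment was 5.28, its pileup 14 over a local background of 1.84 and its −log10 q 6.43. This was the strongest of the 5 peaks found in 1 list only, and it was 9666 bp from the nearest KO peak. Hoxb5 had no peak inside it in either list, and the nearest peaks were 7907 bp from its start for WT and 8303 bp for KO.

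Between Hoxb5 and Hoxb4 both lists had a peak 5 to 6 kb past the end of Hoxb5. The WT peak, chr11:96311243-96311914, was 672 bp wide, with a fold enrichment of 5.58, a −log10 q of 8.96 and a pileup of 20, the highest of the 7 WT peaks. The KO peak, chr11:96311639-96311991, was 353 bp wide, with a fold enrichment of 4.73, a −log10 q of 6.16 and a pileup of 16. The peaks shared 276 bp, 41.1% of the WT peak and 78.2% of the KO peak, and the KO summit lay 239 bp nearer to Hoxb4. Mir10a, a microRNA gene of the cluster, began 5174 bp past this region and ended 993 bp before Hoxb4, and no peak touched it.

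The first exon of Hoxb4 held the strongest KO peak of the cluster. The WT peak, chr11:96318548-96318903, was 356 bp wide, with a fold enrichment of 6.51, a −log10 q of 9.44 and a pileup of 17. The KO peak, chr11:96318267-96319268, was 1002 bp wide and began at the annotated first base of the gene, with a fold enrichment of 7.36, a −log10 q of 13.5 and a pileup of 23. The whole WT peak lay inside the KO peak, which was 646 bp wider, and the summits were 27 bp apart. Both summits were in the 5′ untranslated region.

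Hoxb3, which acts in the hindbrain and in blood progenitors, had WT peaks only. The first, chr11:96340150-96340514, had a fold enrichment of 3.44, a pileup of 7 and a −log10 q of 2.03, the lowest of the 7. The second, chr11:96340763-96341127, had a fold enrichment of 4.15, a pileup of 9 and a −log10 q of 3.37. They were 248 bp apart and 365 bp wide each, with summits in introns of Hoxb3 and of the opposite-strand gene Gm11536. A shorter Hoxb3 transcript is annotated as starting at 96340945, inside the second peak. Of the 200 bases around the summit of that peak, 50 are annotated as untranslated region. The nearest KO peak to either WT peak was in Hoxb2, more than 10 kb away.

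Hoxb2, a regulator of hindbrain patterning, had a peak in both lists over its first coding exon. The WT peak, chr11:96351799-96352251, was 453 bp wide, with a fold enrichment of 4.67, a −log10 q of 4.62 and a pileup of 11. The KO peak, chr11:96351528-96352300, was 773 bp wide, with a fold enrichment of 5.65, a −log10 q of 6.11 and a pileup of 11. The WT peak again lay wholly inside the KO peak, with summits 6 bp apart. Hoxb3os, a non-coding RNA on the opposite strand, has an intron here. Hoxb1, known for its role in the hindbrain and the facial nerve, had no peak inside it and none within 13 kb of its start in either list.

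Most of the Hoxb peaks were low for their list. The WT Hoxb peaks had a median pileup of 11 against 18 for all WT peaks, and the KO Hoxb peaks 13.5 against 19 for all KO peaks. Below that median were 6 of 7 WT and 3 of 4 KO peaks. By fold enrichment, 6 of 7 WT and 4 of 4 KO peaks were below the median of all peaks, 6.38 for WT and 7.44 for KO. The smallest pileup of any peak was 6 in both lists, so that the weakest Hoxb peaks, at 7, stood 1 above it. The number of reads behind each list is unknown, and a stretch without a peak is one in which none was called at this depth, not one shown to be closed.

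**Figure D2:**
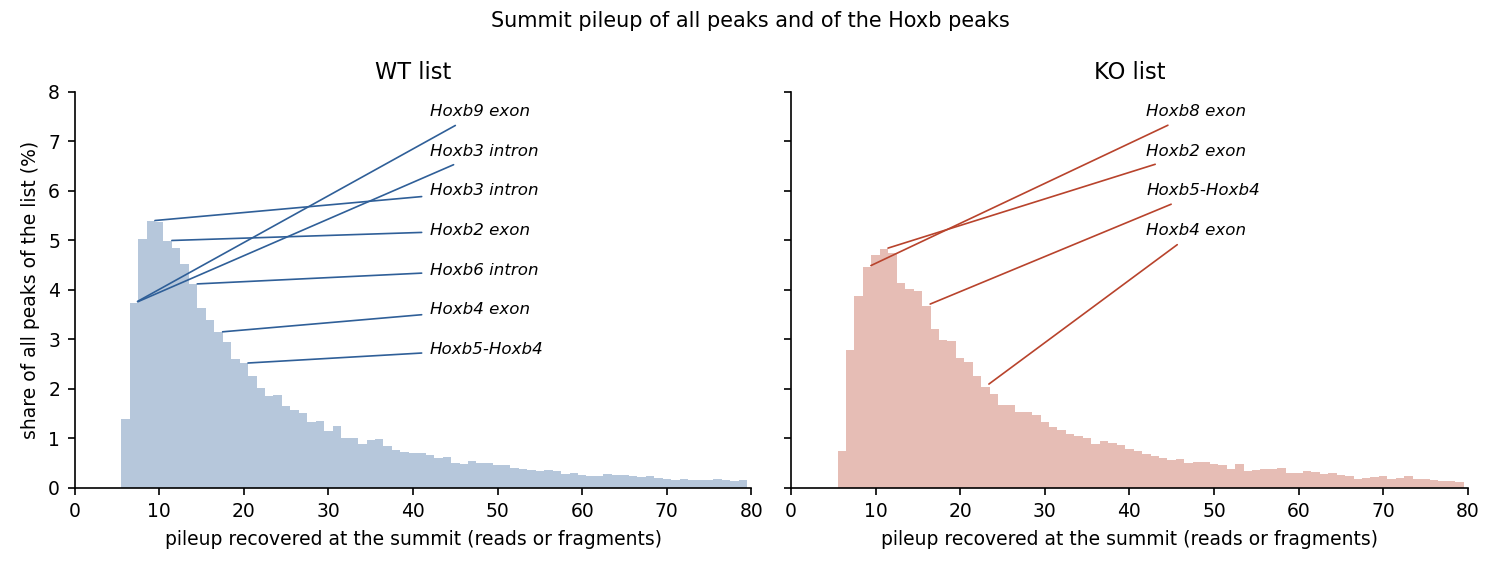
Summit pileup of the Hoxb peaks among all peaks. The x axis is the recovered pileup in reads or fragments, up to 80, the bars give the share of all peaks of the list in percent, and lines lead from each named Hoxb peak to its pileup. WT Hoxb peaks ran from 7 to 20 and KO Hoxb peaks from 9 to 23.

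Read as segments, the cluster alternated between short open stretches and long ones without a peak. Peaks less than 5 kb apart were joined into 1 open segment and gaps of at least 5 kb were taken as closed. The WT list gave 6 open and 7 closed segments, and the KO list gave 4 open and 5 closed segments. Only the Hoxb3 pair was joined, and each open segment was at most 1.0 kb long.

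In the WT list the closed segments, from the 5′ flank onwards, were 127.3, 22.4, 16.1, 6.6, 21.2, 10.7 and 66 kb long. In the KO list they were 139.9, 26.9, 6.3, 32.3 and 66 kb. Hoxb13 and Hoxb1 lay whole within a closed segment in both lists, as did Hoxb7 and Hoxb5. Hoxb9, Hoxb6 and Hoxb3 lay whole within a closed segment in the KO list only, and Hoxb8 in the WT list only. The shortest closed segment of both lists was the one just before Hoxb4, which holds Mir10a.

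The outer closed segments ran on past the window. On the Hoxb13 side the gap began at 96076147 in both lists and ran for 195.5 kb to the first WT peak and for 208.1 kb to the first KO peak. On the Hoxb1 side the WT gap was 111.9 kb and the KO gap 273.8 kb. These gaps were long for their lists, where the median gap was 25.0 and 24.1 kb. The one before Hoxb9 exceeded 93.7% of WT gaps, and the KO gap after Hoxb2 exceeded 95.8% of KO gaps.

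Peaks covered 3240 bp of the window in the WT list, 1.18% of it, and 2593 bp in the KO list, 0.947% of it, against 1.03% and 1.02% of the genome. Both lists together covered 4748 bp, of which 1085 bp were in both. The difference, KO minus WT, was −647 bp. Its sign turned under a stricter threshold, to 341 bp where a peak needed a −log10 q of 5 or more. The stretches differed in direction. From Hoxb9 to Hoxb5 the WT list covered 1029 bp, the KO list 465 bp, and no base was covered in both. From Hoxb4 to Hoxb2 the WT list covered 1539 bp and the KO list 1775 bp, with 809 bp in both.

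Few Hoxb gene starts had a peak. With a peak counted where it overlapped 1 kb on either side of the annotated start, 2 of 10 members had one in the WT list, Hoxb9 and Hoxb4, and 1 of 10 in the KO list, Hoxb4. Over all 21755 coding genes, 57.8% of starts had a WT peak and 57.3% had a KO peak. The starts of Hoxb9, Hoxb7 and Hoxb5 were CpG-rich, with at least 50% GC and a CpG observed to expected ratio of at least 0.6 within 500 bp on each side, and 1 of these 3 had a WT peak and 0 had a KO peak. Over the 9737 CpG-rich coding starts, 91.5% had a WT peak and 90.8% had a KO peak. The Hoxb shares were below these in both lists, with no test made, and the lists differed from each other at 1 start, that of Hoxb9. Low counts were not particular to Hoxb. Hoxc and Hoxd each had a WT peak at 0 of 9 starts, and a KO peak at 1 of 9 and 2 of 9, while Hoxa had 7 of 11 in each list.

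The count depended on which start was used. Annotated starts here are the most 5′ base of a gene, and shorter coding transcripts of Hoxb3 and Hoxb2 start further in. With any annotated transcript start allowed, a choice made after these values were seen, 4 members had a WT peak, Hoxb9, Hoxb4, Hoxb3 and Hoxb2, and 2 had a KO peak, Hoxb4 and Hoxb2. The shares over all coding genes were then 62.4% and 61.9%. The KO peak in Hoxb2 contained the start of the shorter transcript, at 96351631, and the WT peak began 168 bp past it. From the annotated gene start of Hoxb2 the KO peak was 1003 bp away, just outside the 1 kb counted, and the WT peak 1274 bp. With 2500 bp on each side of the gene start, 4 members had a peak in each list. A wider window can only raise such a count, and no share over all coding genes is given for this width.

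**Figure D3:**
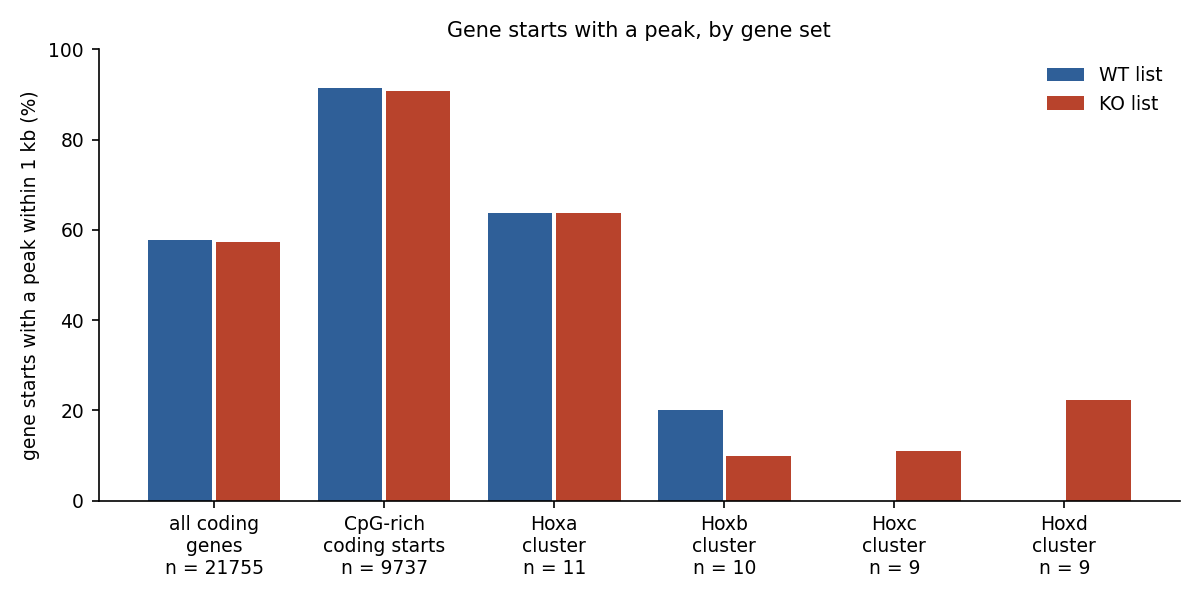
Share of gene starts with a peak within 1 kb, in percent, in the WT list (blue) and the KO list (red), for all coding genes, for CpG-rich coding starts and for the 4 Hox clusters, with the number of genes under each pair. The Hoxb bars stand for 2 and 1 of 10 genes, below the 57.8% and 57.3% of all coding genes. There is 1 list per genotype, so no error bar can be drawn.

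At the places with a peak in both lists, no difference between genotypes exceeded counting error. Each pileup was divided by the lowest background of its list, 1.19 for WT and 1.13 for KO. Over Hoxb4 the WT pileup was 14.2 times that background and the KO pileup 20.4 times, which gave a log2 ratio of KO over WT of 0.52 with an exact 95% binomial interval of −0.45 to 1.52. Between Hoxb5 and Hoxb4 the values were 16.7 times for WT and 14.2 times for KO, with a log2 ratio of −0.24 and an interval of −1.28 to 0.79. The summits there were 239 bp apart, and the KO summit lay past the end of the WT peak. That ratio and its interval therefore compare pileups at different positions, not at 1 site. Over Hoxb2 the values were 9.21 times for WT and 9.78 times for KO, with a log2 ratio of 0.09 and an interval of −1.26 to 1.43. All 3 intervals included 0 and also reached beyond 2-fold in at least 1 direction, so that at pileups of 11 to 23 a 2-fold difference could not be told from none.

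None of the 3 ratios was past 2-fold, and few were elsewhere. Of the 28909 regions with 1 peak of each list over the genome, 2.61% were at least 2-fold higher in KO and 0.37% at least 2-fold lower. The median log2 ratio of those regions was 0.17. Ranked among them, with ties given their mean rank, the Hoxb4 ratio stood at 81.3%, the Hoxb2 ratio at 42.2% and the intergenic ratio at 16.0%. By the deposited fold enrichment in place of the pileup, the log2 ratio was 0.18 at Hoxb4, 0.27 at Hoxb2 and −0.24 between the genes, and by the raw pileups it was 0 at Hoxb2. The intervals cover counting error at the summit only, and reads copied in amplification are not independent.

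**Figure D4:**
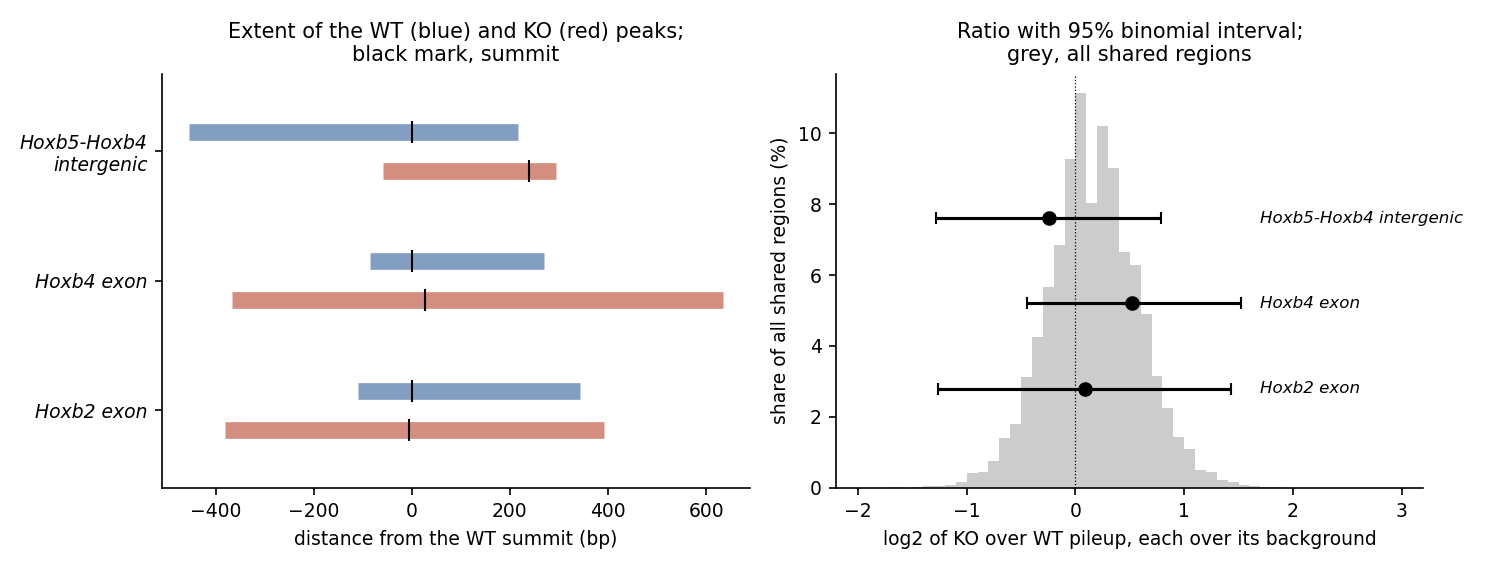
The 3 Hoxb regions with a peak in both lists. Left, extent of the WT (blue) and KO (red) peak in bp from the WT summit, with summits as black marks; right, log2 ratio of KO over WT pileup with its exact 95% binomial interval, over a grey histogram of all 28909 such regions in percent. The KO peak is wider than the WT peak over Hoxb4 and Hoxb2 and narrower between Hoxb5 and Hoxb4, and all 3 intervals include 0.

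Of the Hoxb peaks, 3 of 7 in the WT list overlapped a KO peak and 3 of 4 in the KO list overlapped a WT peak. The counts depended on the rule, with 1 of 7 and 1 of 4 where at least 50% of both peaks had to overlap, and 2 of 7 and 2 of 4 where summits had to lie within 100 bp. No share over all peaks is given for these 2 rules, so those counts cannot be set against the whole lists. The share without overlap came to 57.1% for WT, with an exact 95% Clopper-Pearson interval of 18.4 to 90.1%, against 21.7% of all WT peaks. For KO it came to 25.0%, with an interval of 0.631 to 80.6%, against 20.7% of all KO peaks. The WT interval held the share over all WT peaks and the KO interval the share over all KO peaks. Both intervals cover counting error over peaks only, not a spread between samples, and they take neighbouring peaks as independent.

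Lack of overlap went with low pileup in the whole data. Of all WT peaks with a pileup of 7, as in Hoxb9 and at the first Hoxb3 peak, 75.6% had no overlap. At a pileup of 9, that of the second Hoxb3 peak, 56.4% had none, and at 14, that of the Hoxb6 peak, 23.1% had none. Of all KO peaks with a pileup of 9, that of the Hoxb8 peak, 52.9% had none. The shared Hoxb4 peaks were at pileups of 17 and 23, where 12.3% of WT and 10.6% of KO peaks had none. What the Hoxb6 and Hoxb8 differences owe to genotype, and what to depth, was not tested.

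In sequence composition the Hoxb peaks were alike in 1 respect. All 11 were richer in G and C than the median peak of their list, 51.6% for WT and 51.7% for KO. The 3 places with a peak in both lists count once in each, so the 11 peaks partly share DNA. The WT peaks at Hoxb4, in Hoxb6 and between Hoxb5 and Hoxb4 were close to the median, at 52.0, 52.6 and 52.8%. WT peaks ranged from 52.0% at Hoxb4 to 75.9% at Hoxb9, and KO peaks from 57.1% at Hoxb2 to 63.0% at Hoxb4. The ratio of observed to expected CpG was above the median of the list, 0.334 and 0.331, at 6 of 7 WT and 4 of 4 KO peaks, and the exception was the first Hoxb3 peak, at 0.157. The composition of the DNA between the peaks was not compared.

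In the 200 bp around the summits, 9 motifs were searched on both strands. TGACAG, the MEIS letters, was found in Hoxb4 in both lists, 44 bp past the WT summit, and at no other Hoxb summit. It was in 13.6% of all WT and 13.9% of all KO windows of that length. TGATTNAT, the PBX-HOX letters, was found in Hoxb2 in both lists, and was in 2.14% of WT and 2.27% of KO windows. PBX and MEIS proteins are the partners with which Hox proteins bind DNA, and binding was not measured here.

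The other 7 motifs had no match at a Hoxb summit. RUNX factors, which act throughout HSCs, were searched as TGTGGT, found in 20% of all windows of each list. The letters AGATAA of GATA proteins were in 8.56% of WT and 8.44% of KO windows. AP-1, as TGANTCA, was in 7.72 and 7.93%. The PU.1 letters, GAGGAAGT, were in 6.14 and 6.89%. The CTCF core motif was in 5.38 and 5.24%, and the retinoic acid response elements DR5 and DR2 in under 0.1% each. No match says only that these letters were not in the 7 and 4 windows. The Hoxb8 sequence above has a TGACAG outside its summit window.

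Beside the other Hox clusters, taken with the same flanks, Hoxb lay between Hoxa and Hoxd in WT peaks. Hoxa, the cluster with the best-known members in HSCs such as Hoxa9, had 9 WT and 10 KO peaks. In each list 7 of 11 Hoxa gene starts were marked, but not the same ones. Hoxa4 and Hoxa9 were marked in the WT list only, and Hoxa2 and Hoxa11 in the KO list only. Hoxd had 2 WT and 6 KO peaks, and Hoxc had 0 WT and 2 KO peaks. The Hoxb cluster was the only one of the 4 with fewer KO than WT peaks, at the deposited threshold. With a −log10 q of 5 or more it held 3 of each, and with 10 or more 0 WT and 1 KO. Its highest pileups, 20 and 23, compared with 29 and 26 in Hoxa and 16 and 22 in Hoxd. These are single lists, and the differences in peak number were not tested.

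PBX proteins bind DNA together with Hox factors. At its start Pbx2 had a WT pileup of 21 and a KO pileup of 12, a log2 ratio of −0.72 with an interval of −1.88 to 0.37. Pbx4 had a WT pileup of 53 and a KO pileup of 63, a log2 ratio of 0.34 with an interval of −0.22 to 0.89. Both intervals included 0. Among the 9 regions compared at genes of Hox cofactors, Pbx2 had the lowest log2 ratio and Pbx4 the highest. The median of the 9 was −0.05, and 0 were past 2-fold. Of 20 genes whose products control Hox clusters, 16 had a start peak in WT and 15 in KO, 13 in both, against the 57.8% and 57.3% of all coding starts. Most of the 20 had CpG-rich starts, and over all CpG-rich coding starts the shares were 91.5% and 90.8%. Past 2-fold were 0 of 12 regions, where 2.61% and 0.37% of all shared regions were higher or lower.

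Among these controllers the largest differences were at Bmi1 and Ctcf. Bmi1, a Polycomb subunit needed for HSC self-renewal, had a WT pileup of 28 and a KO pileup of 43, a log2 ratio of 0.70 with an interval of −0.02 to 1.45. Ctcf, which marks domain borders in Hox clusters, had a WT pileup of 47 and a KO pileup of 28, a log2 ratio of −0.66 with an interval of −1.39 to 0.04. Kmt2a, which keeps Hox genes active, had pileups of 31 and 30. Rara, Rarg and Cdx2 had a start peak in the WT list only, and Rxra and Cdx4 in the KO list only. Their pileups were 7, 8, 8, 7 and 7 in that order, near the smallest of any peak, which was 6 in both lists. What these differences owe to genotype, and what to depth, was not tested.

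As a check of the sorted cells, 2 of 6 stem cell markers, Kit and Hlf, had a start peak in both lists. Over all coding starts, 57.8% had a WT peak and 57.3% a KO peak. Ly6a, Slamf1, Procr and Mecom had none at the annotated gene start. Inside the gene, Mecom had 20 WT and 18 KO peaks and Slamf1 had 1 in each list, while Ly6a and Procr had none. Cd48, and Cd34, which only the labels give as sorted against, had a start peak in both lists. The pileups at Cd48 were low, 7 in WT and 8 in KO, and those at Cd34 were 30 and 37. Open starts are not expression, and the purity of the sort was not tested by these peaks.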

How the data were processed

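Peak lists of ATAC-seq on sorted HSCs were used as deposited, 1 for WT and 1 for KO, for 2 samples of each genotype. Per the methods of the study, the authors trimmed with Trim Galore and aligned to mm10 by Bowtie2. Picard served to drop duplicate and mitochondrial reads, and MACS2 called the peaks without a fragment model. Versions and extension size are not given in the sources used here. Peaks made by extending reads around each cut are wider than the cut sites, so edges are approximate. The deposited fold enrichment is the authors' ratio of summit pileup to local background with 1 added to each, and the deposited −log10 p and −log10 q are those of the caller. The deposited score, a display value made by the authors' caller, was not used. The summit offset was given in bases, and summits were identical in the separate deposited summit files.

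The members, gene lists, motifs and thresholds were chosen with earlier results of these data known. Named were all 10 members, every annotated gene that a peak touched or that lay between named neighbours, and genes from lists of cofactors, regulators and cell markers. Pileup and local background were solved for each peak from the fold enrichment and the −log10 p under the caller's Poisson model, and a whole-number pileup matched within 0.001 for 100.0% of peaks in each list. A KO to WT ratio used pileup over the lowest background, the median of the 1000 smallest local backgrounds of the list, in regions with 1 peak of each list, and had no pseudocount. Peaks overlapped if they shared at least 1 bp. Peaks on 20 sequences, the autosomes and chromosome X, were used, and 0 lay beyond a chromosome end in GRCm38.p6. Genes were those of GENCODE M21 and sequence was from RefSeq. No read totals are in the lists, so the depth of each sample is unknown. Alternatives were other q thresholds, flanks, gaps, overlap rules, start windows and scalings. Some sequences and genes of these lists are not reported here. Python 3.11.15 with numpy 2.4.6, pandas 2.3.3 and scipy 1.17.1 was used.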

Additional observations from a re-analysis of the deposited data

How the results depend on the processing

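Of 84 alternative values, 63 stayed within a limit, 19 moved past it and 2 changed sign. The limit was 1.5-fold for counts, and the 95% interval for shares and ratios. With peaks of −log10 q 5 or more only, the WT list kept 3 peaks, as did the KO list, and 1787 covered bp, with 3 open and 4 closed segments and 1 marked start, and KO minus WT covered bases became 341 bp. At a threshold of 10 the WT list kept 0 peaks, 0 bp, 0 open and 1 closed segment and 0 starts, the KO list kept 1 peak, 1002 bp, 1 open and 2 closed segments, 0% of KO peaks overlapped, and the difference was 1002 bp. Marked starts rose to 4 in WT and 4 in KO with 2500 bp on each side, and to 4 and 2 with any transcript start, which was chosen after the data were seen. With any transcript start the shares over all coding genes were 62.4% and 61.9%, and for 2500 bp none is given. Overlap of at least 50% of both peaks left 14.3% of WT and 25.0% of KO peaks with a partner, and summits within 100 bp left 28.6 and 50.0%, inside the wide intervals of the shares. Shares over all peaks are not given for these rules. At the threshold of 10 there was no WT share of overlap, with no WT peak left.

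No paired analysis was possible because the 2 samples of a genotype name 1 list between them. No replicate was left out, for lack of lists per replicate. Depth limits all Hoxb ratios, which rest on pileups of 11 to 23.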
